A study of Mus musculus with 7 samples.

Results

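The genes described here are 10 neuropeptide genes of sensory neurons: Adcyap1, Nts, Gal, Npy, Vip, Calca, Calcb, Tac1, Nppb and Sst. They were found by gene symbol, 1 row each, in a table of 54309 genes. RNA sequencing had been done on 7 samples of lumbar (L4-6) dorsal root ganglia, which hold the cell bodies of sensory neurons. The mice were labelled male C57bl/6, 6 to 8 weeks old, and every animal had a sciatic nerve injury 72 h before the ganglia were taken. The groups differed in Zeitgeber time (ZT, hours after lights on): 4 samples were labelled ZT20 (dark phase) and 3 were labelled ZT8 (light phase), and the comparison asks which transcripts varied with clock time after injury. There was no uninjured group, so levels and not induction by injury were measured. Ganglia were dissociated with enzymes and passed over an albumin gradient, which enriches neurons and leaves other cells behind to an unknown extent. The labels do not say whether the samples came from separate or pooled animals, so p-values measure the spread between these samples.

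A neuropeptide is made as a longer precursor that convertases (PC1/3 and PC2, from Pcsk1 and Pcsk2) cut, carboxypeptidase E trims and PAM amidates, and it is stored in dense-core vesicles until release acts on G protein-coupled or guanylyl cyclase receptors. In dorsal root ganglia, CGRP (from Calca and Calcb) and substance P (from Tac1) are constitutive peptides of many pain-sensing neurons and widen blood vessels when released in the skin. Galanin (Gal), neuropeptide Y (Npy), VIP (Vip) and PACAP (from Adcyap1) are known as peptides whose transcripts rise in sensory neurons after their axon is cut. Natriuretic polypeptide B (Nppb), somatostatin (Sst) and neurotensin (Nts) mark a small class of itch-sensing neurons.

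Values are TPM, a transcript's share of all transcripts, which takes account of its length and sums to the same total in each sample. Sequencing depth is not known from TPM, and the number of genes above 0 ran from 24192 to 25238 at ZT20 and from 18297 to 22973 at ZT8, lowest in ZT8 replicate 2. The labels give every animal as male, yet Ddx3y, a gene on the Y chromosome, had no TPM above 0 in ZT20 replicates 3 and 4, while the other 5 samples held 11.7 to 24.2 TPM. Xist, which female cells transcribe, was at 2.21 and 2.30 TPM in those replicates, at 1.08 TPM in ZT20 replicate 2, where Ddx3y was lowest of the 5, and at 0.00467 TPM or less elsewhere. Xist near or above 1 TPM was thus found at ZT20 only, so sex cannot be fully told apart from the time of day. Results are also given without ZT20 replicates 3 and 4, and that fit still holds replicate 2. Pan-neuronal markers (10 genes) summed to 12072 to 13587 TPM at ZT20 and 10103 to 13157 TPM at ZT8. Their mean log2(TPM + 1) was 9.24 to 9.36 at ZT20 and 8.67 to 9.03 at ZT8, so it was higher in every ZT20 sample. Satellite glia markers (8 genes, Apoe the most abundant) summed to 7586 to 9281 TPM at ZT20 and 12876 to 15604 TPM at ZT8. In bulk samples fewer cells of a type and less RNA per cell cannot be told apart. Library identifiers were numbers at ZT20 and letters at ZT8, so a difference in library handling, if there was one, cannot be told apart from the time of day.

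Gene positions below are those of GENCODE M21 (GRCm38), in which none of the 10 overlaps another annotated gene. The 10 genes covered a wide range of levels and together held 0.83% to 1.33% of all TPM in a sample, the most in ZT8 replicate 2 (13271 TPM in sum). By mean TPM over the 7 samples the order was Calca, Gal, Calcb, Nts, Npy, Tac1, Adcyap1, Sst, Nppb and Vip. Calca ranked 14 and Gal 25 of all genes in the table, whereas Sst ranked 12104, Nppb 13349 and Vip 20268. Neighbours in this order kept their places in all 7 samples except at 4 points. Gal exceeded Calca in ZT8 replicate 2 alone, and Nppb exceeded Sst there, where Sst was listed at 0. Vip exceeded Nppb in ZT8 replicate 1. Nts and Npy, as noticed once the values were seen, changed places with the group: Npy was above Nts in 4 of 4 ZT20 samples and Nts above Npy in 3 of 3 ZT8 samples.

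**Figure D1:**
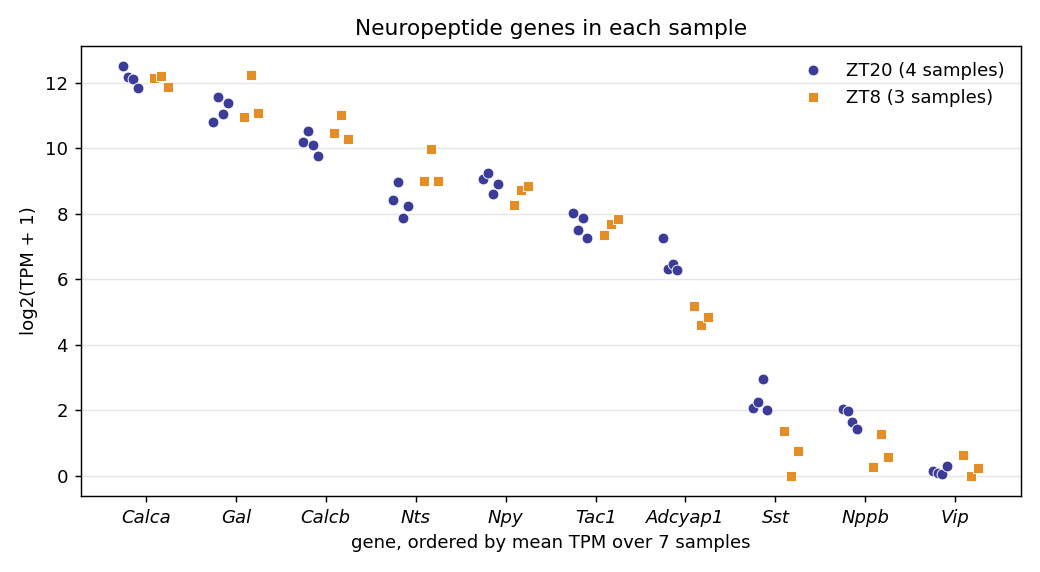
Level of each of the 10 neuropeptide genes as log2(TPM + 1) (vertical axis), with genes ordered by mean TPM (horizontal axis); circles are the 4 ZT20 samples and squares the 3 ZT8 samples. Calca and Gal stand highest, Vip lies near 0, and the circles of Adcyap1, Sst and Nppb all lie above the squares.

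Differences between the groups were tested on log2(TPM + 1) with limma over the 14800 genes whose mean reached 1 TPM, and p-values were adjusted by Benjamini-Hochberg over all of them. An adjusted p under 0.05 was reached by 16.4% of them (12.8% up and 3.61% down at ZT20, 1899 and 534 genes), and the median difference of all tested genes was 0.23. Median-ratio scaling brought that median to 0.019 and the split to 1088 up and 1254 down. Vip fell under the minimum, and 9 of the 10 peptide genes were tested. Adcyap1 and Sst were higher at ZT20, none was lower, and the other 7 did not pass. Sst and Nppb reached the minimum of 1 TPM only through their ZT20 samples. At ZT8 their means were 0.757 and 0.71 TPM. The median difference of the 9 tested genes was 0.089, a description of those that reached the minimum.

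**Figure D2:**
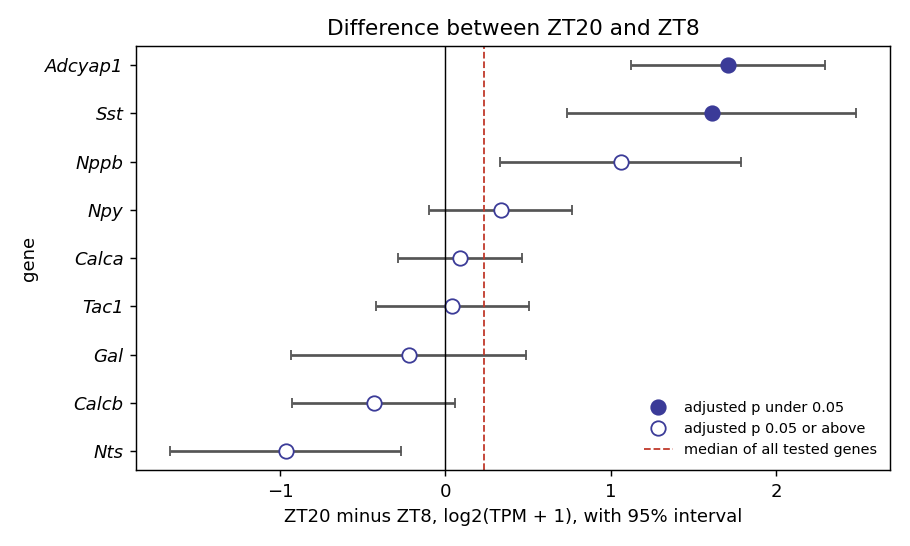
Difference in log2(TPM + 1), ZT20 minus ZT8 (horizontal axis), for the 9 tested neuropeptide genes; points are limma estimates, bars their 95% intervals, filled points have an adjusted p under 0.05, and the dashed line is the median of all tested genes (0.23). Adcyap1 and Sst are filled, and the interval of Nts lies below 0.

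Adcyap1 (ENSMUSG00000024256, chr17:93199017-93206537, plus strand) encodes the precursor of PACAP, a peptide that raises cyclic AMP in its target cells. Values at ZT20, replicates in order here and for every gene that follows, were 154, 78.4, 88.5 and 77.4 TPM, and those at ZT8 were 35.3, 23.4 and 27.7 TPM. Every ZT20 sample lay above every ZT8 sample, and replicate 1 stood far above the other ZT20 samples. The means were 99.6 ± 36.6 TPM (SD, n = 4) and 28.8 ± 6.02 TPM (SD, n = 3). The log2 difference was 1.71 ± 0.26 (SE) (95% interval 1.13 to 2.30, limma adjusted p = 0.00673), 3.28-fold on the log2(TPM + 1) scale. Groups without overlap, higher at ZT20, were found for 24.5% of all tested genes. Without ZT20 replicate 1 the difference was 1.48 (limma adjusted p = 0.0110).

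The Adcyap1 difference was 1.47 after median-ratio scaling and 1.57 after quantile normalization, and it passed under both. Its longest annotated transcript, at 3392 nt, is the longest among the 10 genes. Corrected for transcript length and GC content within each sample, it was 1.51 and passed (limma adjusted p = 0.0182). It no longer passed without ZT20 replicates 3 and 4 (1.92, limma adjusted p = 0.105), a limma fit in which 0 genes of the whole table passed, with 1810 higher and 597 lower at an unadjusted p under 0.05. With the pan-neuronal score of each sample as covariate it was 1.36 (limma adjusted p = 0.212), and that score did not overlap between the groups. Here and below, the covariate fit therefore cannot well separate the score from the group.

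Adcyap1, Sst and Vip are shown with the sequence before their start sites because the first 2 passed the test and Vip, another peptide that cyclic AMP induces in neurons, was barely detected. The sequences are the 250 bases upstream of a RefSeq transcript start in GRCm38.p6, 5′ to 3′ on the gene's strand, and capitals mark matches to the cyclic AMP response element TGACGTCA or its half-site TGACG, searched on both strands. They lie at chr17:93198767-93199016 (plus strand), chr16:23890845-23891094 (minus strand) and chr10:5638968-5639217 (plus strand).
Adcyap1: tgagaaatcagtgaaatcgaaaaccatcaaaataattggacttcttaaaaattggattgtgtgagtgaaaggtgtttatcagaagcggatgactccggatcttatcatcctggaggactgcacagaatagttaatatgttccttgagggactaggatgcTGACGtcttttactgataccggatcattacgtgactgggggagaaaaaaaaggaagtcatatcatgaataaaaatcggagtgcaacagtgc
Sst: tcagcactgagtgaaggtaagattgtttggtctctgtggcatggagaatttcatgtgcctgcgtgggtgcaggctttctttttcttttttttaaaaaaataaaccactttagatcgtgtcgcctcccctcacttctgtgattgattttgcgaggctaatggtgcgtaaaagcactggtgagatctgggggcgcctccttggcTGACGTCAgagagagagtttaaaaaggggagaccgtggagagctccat
Vip: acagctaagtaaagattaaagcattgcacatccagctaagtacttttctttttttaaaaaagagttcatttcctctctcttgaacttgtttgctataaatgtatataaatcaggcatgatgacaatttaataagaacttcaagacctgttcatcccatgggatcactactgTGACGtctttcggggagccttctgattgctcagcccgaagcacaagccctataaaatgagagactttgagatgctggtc

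The full element TGACGTCA was found before Sst, where it starts 48 bases before the transcript start, and before none of the other 8 peptide genes with a promoter window. Of all 32851 windows of this length in the RefSeq table, 1.55% held it on either strand. The half-site alone, which the full element contains, was in 17.8% of all windows and in those of 6 of 9 peptide genes: Adcyap1 (91 bases before the start), Calca (65), Nts (166), Vip (79), Tac1 and Sst. The E-box CACGTG was in 6.02% of windows and, among these genes, only before Tac1, 61 bases from the start. The D-box (TTATGTAA or TTACGTAA) was in 0.931% of windows and in none of theirs. Distances are from the RefSeq start, which for Sst, Nts, Nppb and Tac1 lies inside the GENCODE M21 gene span. Part of their windows, with the Sst element and the Tac1 E-box, is therefore within that span. These matches describe letters in a window and show no binding.

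Galanin was the most abundant of the peptides known to rise after axon injury. Gal (ENSMUSG00000024907, chr19:3409915-3414544, minus strand) was at 1797, 3045, 2104 and 2710.1 TPM at ZT20 and 2001, 4804 and 2183 TPM at ZT8. The groups overlapped, and ZT8 replicate 2 was the highest sample. The log2 difference was −0.22 ± 0.31 (SE) (95% interval −0.94 to 0.49, limma adjusted p = 0.641), so the data allow a difference of either sign. Without ZT8 replicate 2 it was 0.18.

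Neuropeptide Y, which acts through Y receptors to restrain transmitter release, did not pass. Npy (ENSMUSG00000029819, chr6:49822710-49829507, plus strand) was at 530.9, 607, 388 and 479 TPM at ZT20 and 306, 426 and 462 TPM at ZT8. The ranges overlapped, with the 2 highest samples at ZT20 and the lowest at ZT8. The log2 difference was 0.34 ± 0.19 (SE) (95% interval −0.10 to 0.77, limma adjusted p = 0.242).

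For neurotensin, a peptide that signals through its own receptors and sortilin, the difference was negative and did not pass. Nts (ENSMUSG00000019890, chr10:102481756-102490486, minus strand) was at 345, 498, 234 and 299 TPM at ZT20 and 517, 1022 and 513 TPM at ZT8. Every ZT8 sample lay above every ZT20 sample, by a narrow gap between ZT20 replicate 2 and ZT8 replicate 3. Groups without overlap, lower at ZT20, were found for 8.72% of all tested genes. Its log2 difference was −0.97 ± 0.31 (SE) (95% interval −1.66 to −0.27) and did not pass (limma adjusted p = 0.0628). Without ZT20 replicate 2 it was −1.16 and passed (limma adjusted p = 0.0426), and without ZT8 replicate 2 it was −0.64 (limma adjusted p = 0.127). It also passed after median-ratio scaling (−1.22, limma adjusted p = 0.0485) and with array weights (−0.91, limma adjusted p = 0.0319). Without ZT20 replicates 3 and 4 it was −0.64 (limma adjusted p = 0.399). With the pan-neuronal score as covariate the sign turned to 0.62 (limma adjusted p = 0.378).

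VIP transcripts were close to the limit of the table. Vip (ENSMUSG00000019772, chr10:5639218-5647617, plus strand) was at 0.116, 0.0602, 0.0298 and 0.237 TPM at ZT20 and 0.549, 0 and 0.184 TPM at ZT8. No sample reached 1 TPM, the groups overlapped, and no fold is given because depth is unknown at such levels. Gal, by comparison on the same scale per transcript length, was at 1797 TPM or more in every sample.

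**Figure D3:**
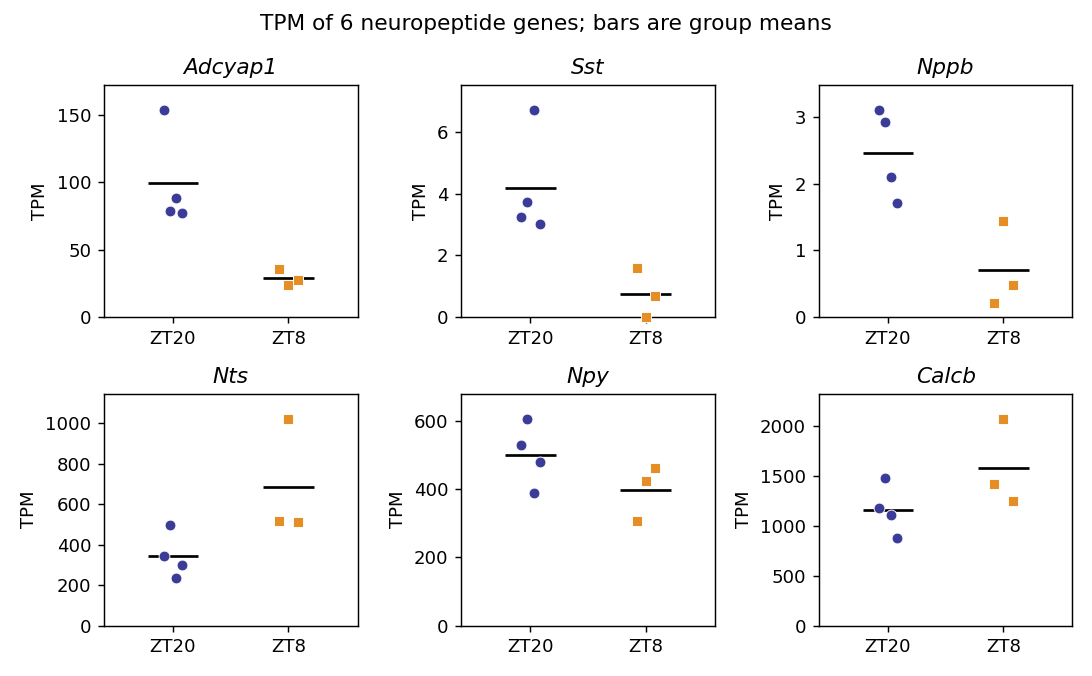
TPM (vertical axes, each from 0) of 6 neuropeptide genes in the 4 ZT20 samples (circles) and 3 ZT8 samples (squares), with group means as bars. The groups are apart in Adcyap1, Sst, Nppb and Nts, with Nts higher at ZT8, and overlap in Npy and Calcb.

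The CGRP and substance P genes did not pass the test. Calca (ENSMUSG00000030669), which gives calcitonin and α-CGRP from one gene by alternative splicing, was at 5823, 4659, 4423 and 3685 TPM at ZT20 and 4525, 4713 and 3761 TPM at ZT8. These gene-level values do not separate the calcitonin and CGRP transcripts. The groups overlapped fully, with a log2 difference of 0.089 ± 0.17 (SE) (95% interval −0.29 to 0.47, limma adjusted p = 0.731). Without ZT20 replicate 1 and under median-ratio scaling its sign was negative (−0.026 and −0.16).

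Calcb (ENSMUSG00000030666), the β-CGRP gene, was at 1179, 1483, 1111 and 879 TPM at ZT20 and 1419.5, 2075 and 1253 TPM at ZT8. Its lowest 3 samples were ZT20 samples, but ZT20 replicate 2 lay within the ZT8 range. On the log2 scale the difference was −0.43 ± 0.22 (SE) (95% interval −0.93 to 0.057, limma adjusted p = 0.189). In GENCODE M21 (GRCm38) Calca lies at chr7:114631478-114636357 on the minus strand and Calcb at chr7:114718643-114723365 on the plus strand, 82285 bases apart. Their transcripts share 33 runs of 31 bases, 1.97% of those in Calca and 2.62% of those in Calcb. No other pair of the 10 genes shared any, and sharing with genes outside the 10 was not examined. How the authors' counting divided them is not stated.

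Tac1 (ENSMUSG00000061762, chr6:7554879-7565834, plus strand), the precursor gene of substance P and neurokinin A, was at 259.7, 182, 235 and 153 TPM at ZT20 and 163, 206 and 227 TPM at ZT8. The ZT8 samples fell inside the ZT20 range. Its log2 difference was 0.043 ± 0.20 (SE) (95% interval −0.42 to 0.50, limma adjusted p = 0.896), and it was −0.21 after median-ratio scaling. The intervals of Calca and Tac1 leave room for differences of up to about 0.47 and 0.50 on the log2 scale.

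Somatostatin and natriuretic polypeptide B transcripts were low, and Sst passed the test while Nppb did not. Both were admitted to the test through their ZT20 samples, where they are high, so their calls depend on the minimum of 1 TPM. With no minimum neither passed (limma adjusted p = 0.0850 for Sst and 0.142 for Nppb). Sst (ENSMUSG00000004366, chr16:23889573-23890958, minus strand), an inhibitory peptide, was at 3.23, 3.73, 6.72 and 3.01 TPM at ZT20 and 1.597, 0 and 0.674 TPM at ZT8. Every ZT20 sample was above every ZT8 sample, as for 24.5% of all tested genes. The library with the fewest genes above 0 was ZT8 replicate 2, where Sst was listed at 0. On the log2 scale the difference was 1.61 ± 0.38 (SE) (95% interval 0.74 to 2.49, limma adjusted p = 0.0262). On this scale the change of such low values depends on the pseudocount, and with 0.1 in place of 1 it was 2.996, short of the threshold (limma adjusted p = 0.0577). In 9 of 20 alternatives Sst passed. The call was lost without each of ZT20 replicates 1, 2, 3 and 4 and without ZT8 replicate 3, with limma adjusted p-values of 0.0528 to 0.0799. Without ZT20 replicates 3 and 4 together the difference was 1.45 (limma adjusted p = 0.233), and with the pan-neuronal score as covariate 0.52 (limma adjusted p = 0.713).

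Nppb (ENSMUSG00000029019, chr4:147985788-147987205, plus strand), whose product starts itch signalling in the spinal cord through the receptor Npr1, was at 3.11, 2.93, 2.097 and 1.71 TPM at ZT20 and 0.21, 1.44 and 0.485 TPM at ZT8. The groups did not overlap, with ZT20 higher, as for 24.5% of all tested genes. Its log2 difference was 1.06 ± 0.32 (SE) (95% interval 0.33 to 1.79) and did not pass (limma adjusted p = 0.0545). Without ZT8 replicate 2, its highest ZT8 sample, the difference was 1.35 and passed (limma adjusted p = 0.0130). Over 20 alternatives it passed in 5, among them the threshold of 0.10, and all 5 kept the minimum of 1 TPM.

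Of 6 listed markers of the itch-sensing neurons, Nts among them, all were tested and 4 rose at ZT20, against 12.8% of all tested genes. The 4, named after their values were seen, were the leukotriene receptor Cysltr2 (1.66, limma adjusted p = 0.0312), the serotonin receptor Htr1f (1.23, limma adjusted p = 0.0148), the oncostatin M receptor Osmr (1.02, limma adjusted p = 0.0450) and the kinase Jak1 (0.75, limma adjusted p = 0.0162), which many cells express. Htr1f, for example, was at 11.7 to 15.2 TPM in the ZT20 samples and 3.08 to 6.28 TPM in the ZT8 samples. The cytokine receptor Il31ra differed by 0.88 and did not pass (limma adjusted p = 0.0523). The list's median difference was 0.95, against 0.23 for all tested genes, while Nts alone in the list had a negative difference. Nts averaged 490 TPM over the 7 samples, against 2.71 TPM for Sst and 1.71 TPM for Nppb. The list's summed TPM, Nts included, was 478 to 686 at ZT20 and 645 to 1131 at ZT8. Whether Nts came from these neurons alone was not tested. Removing 1 library could end these calls: Osmr lost its call without any 1 of ZT20 replicates 1, 3 and 4 or ZT8 replicates 1 and 3, Cysltr2 without any 1 of the ZT20 replicates or ZT8 replicate 3, and Jak1 and Htr1f without ZT20 replicate 3 or 4. After the length and GC correction 2 of the 6 passed, and without ZT20 replicates 3 and 4 none did (3 higher at an unadjusted p under 0.05), as for the whole table. With a pseudocount of 0.1 or no minimum 2 of the 6 rose. After median-ratio scaling 3 rose and 1, Nts, fell. With replicate number as a block 1 rose and Nts fell, and with the length and GC correction added to the block 0 rose and Nts fell. With the pan-neuronal score as covariate 0 passed in limma, also at an unadjusted p under 0.05, and the list's median was 0.27.

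Of 6 markers of peptidergic nociceptors, the neurons that make CGRP and substance P, 3 rose at ZT20, against 12.8% of all tested genes, the share that also stands beside the other neuronal lists here (the stem cell factor receptor Kit, 1.07; the capsaicin receptor Trpv1, 0.94; the artemin receptor Gfra3, 0.68), with limma adjusted p-values of 0.0308, 0.0208 and 0.0111, named after their values were seen. Kit lost its call without any 1 of the ZT20 replicates and Trpv1 without ZT20 replicate 1, 3 or 4. The list's median difference was 0.81, with 5 of the 6 positive and the lowest at −0.25. Its summed TPM overlapped between the groups, at 366 to 681 TPM at ZT20 and 496 to 599 TPM at ZT8. Calca, Calcb and Tac1 themselves had differences of 0.089, −0.43 and 0.043. Only 1 of the 6 passed after median-ratio scaling, with no minimum, or after the length and GC correction. With the covariate 0 passed in limma (4 higher at an unadjusted p under 0.05), and the median was 1.18. Of 6 markers of nonpeptidergic nociceptors 1 passed, higher (median 0.39). That call was lost after median-ratio scaling, with no minimum, and without any 1 library other than ZT8 replicate 1. Of 8 markers of large-diameter neurons 2 passed, both higher (median −0.074). For those 8 the counts were 1 higher and 1 lower after median-ratio scaling and 1 higher and 2 lower after the length and GC correction. With the covariate 0 of the 8 passed in limma, with 0 higher and 6 lower at an unadjusted p under 0.05. Of the 10 pan-neuronal markers 2 passed, both higher (median 0.40). The pan-neuronal score did not overlap between the groups, so the covariate fit cannot well separate neuronal content from the group. The part of neuronal content in the differences of Adcyap1 and Sst was not tested. Of 8 injury markers 1 rose (median 0.086), and leaving out 1 library gave 0 to 3 higher, the most without ZT8 replicate 2. After median-ratio scaling 0 of the 8 passed and their median was −0.16.

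Among non-neuronal markers, where 3.61% of all tested genes fell, 3 of 8 for satellite glia fell (median −0.39), 0 of 6 for Schwann cells passed (median 0.0023; 1 higher at an unadjusted p under 0.05), 1 of 7 for macrophages fell (median −0.16), 0 of 4 tested for endothelial cells and fibroblasts passed (median −0.026; 1 lower unadjusted) and 1 of 5 for plasma cells fell (median −0.0047). In that last list Mzb1 differed by −2.88 (limma adjusted p = 0.0432) and Jchain by −3.19 (limma adjusted p = 0.102), both named after their values were seen, and the other 3 by 0.044 or less in size. Those counts are from the same limma test. With 1 library left out, satellite glia had from 1 (without ZT20 replicate 3) to 4 lower (without ZT8 replicate 2). Macrophages had from 0 lower (without ZT20 replicate 1, 3 or 4) to 2 (without ZT8 replicate 2). The macrophage median was 0.053 without ZT8 replicate 1. The plasma cell call was lost without any 1 library other than ZT20 replicate 2. With no minimum 0 genes of these lists passed. The summed levels of Schwann cell markers were 1121 to 1254 TPM at ZT20 and 903 to 1296 TPM at ZT8. The macrophage sums were 296 to 628 and 320.2 to 726 TPM, those of endothelial cells and fibroblasts 69.9 to 96.1 and 77.1 to 183 TPM, and those of plasma cells 267 to 486 and 496 to 935 TPM, the only one of these 4 sums whose groups did not overlap. The plasma cell median was −1.44 over the 4 genes reaching 5 TPM and −0.42 after quantile normalization. Every defining marker in these lists was above 0 in at least 1 sample.

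Because a ratio within a sample does not depend on scaling, 8 pairs of peptide genes were compared as log2 ratios of TPM, and the 6 pairs without a value at 0 were compared over all 35 splits (exact permutation, two-sided), where the smallest possible p is 0.0286. Adcyap1 to Tac1 was 0.593, 0.431, 0.377 and 0.506 in the ZT20 replicates and 0.217, 0.114 and 0.122 in the ZT8 replicates. The groups did not overlap, and the ratio was 3.26-fold higher at ZT20 (log2 difference 1.70, exact p = 0.0286, adjusted p = 0.171 over 6 pairs). Nts to Calca was 0.0592, 0.107, 0.0528 and 0.0813 against 0.114, 0.217 and 0.137, again without overlap, and was 2.08-fold higher at ZT8 (log2 difference −1.06, exact p = 0.0571, adjusted p = 0.171). With 6 pairs a single pair at the smallest p adjusts to 0.171, so these adjusted values could not pass for 1 pair alone.

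Calcb to Calca was 0.203, 0.318, 0.251 and 0.239 in the ZT20 replicates and 0.314, 0.4402 and 0.333 in the ZT8 replicates. ZT20 replicate 2 alone lay inside the ZT8 range, and the log2 difference was −0.52 (exact p = 0.0857, adjusted p = 0.171). Gal to Calca (−0.31, exact p = 0.543), Npy to Gal (0.56, exact p = 0.229) and Tac1 to Calca (−0.046, exact p = 0.886) overlapped between the groups. The other two pairs had a sample at 0: Sst to Nppb ran from 1.04 to 3.21 at ZT20 and was 7.62, 0 and 1.39 at ZT8, and Vip to Gal was at most 0.000274 in any sample.

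**Figure D4:**
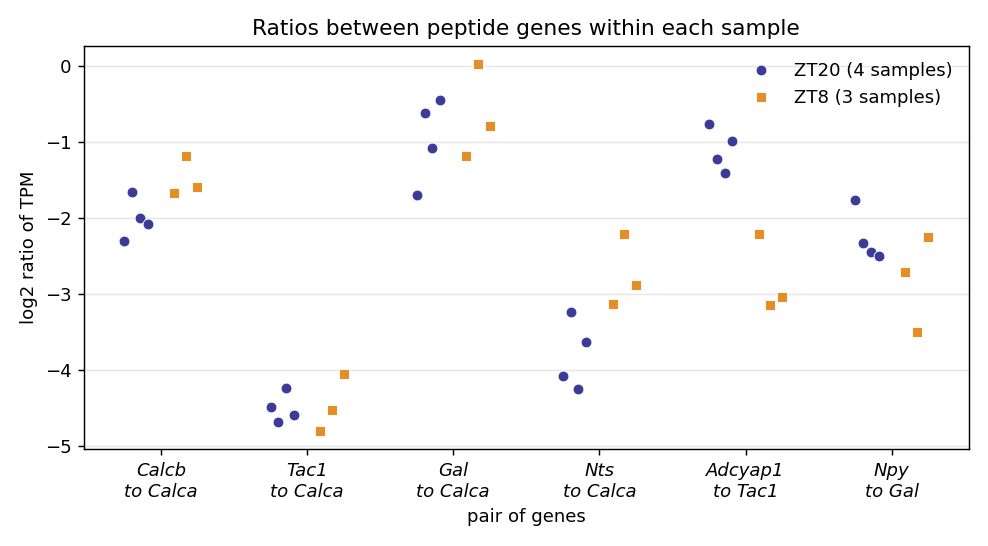
Log2 ratio of TPM between pairs of peptide genes within each sample (vertical axis) for the 6 tested pairs (horizontal axis); circles are the 4 ZT20 samples and squares the 3 ZT8 samples. Adcyap1 to Tac1 is higher in every ZT20 sample, and Nts to Calca is higher in every ZT8 sample.

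Receptors for these peptides were mostly too low to test in the ganglia. Of 29 listed receptor genes 11 reached 1 TPM on average and 3 of them rose at ZT20, with none lower, against 12.8% of all tested genes higher, and the median difference of the 11 was 0.41. That median was 0.17 over 28 receptors with no minimum, 0.15 after the length and GC correction and 0.082 after quantile normalization. Npy2r (ENSMUSG00000028004), a receptor for neuropeptide Y, was at 12.3 to 13.98 TPM at ZT20 and 2.89 to 6.23 TPM at ZT8, a difference of 1.35 ± 0.23 (SE) (limma adjusted p = 0.00991). Npy1r, another such receptor, was at 12.1 to 15.6 and 5.51 to 9.04 TPM (0.79, limma adjusted p = 0.0346). Npr2, the receptor for C-type natriuretic peptide, was at 27.1 to 28.8 and 15.0 to 16.7 TPM (0.79, limma adjusted p = 0.00887). That peptide is not among those described here, and its precursor gene Nppc was at 0 TPM in every sample. Of the receptors for the peptides described here, only Npy2r and Npy1r therefore rose. The groups did not overlap in any of the 3 receptor genes that rose, as in 24.5% of all tested genes. Npy1r lost its call under median-ratio scaling and quantile normalization, and without any one of ZT20 replicates 1 to 4 or without ZT8 replicate 3 (limma adjusted p = 0.0539 to 0.106). After the length and GC correction 1 of the 11 passed, Npy2r, and with the pan-neuronal score as covariate 0 passed in limma, with 1 higher and 1 lower at an unadjusted p under 0.05. Ramp2, a partner of the calcitonin-like receptor, ranked among the 3 highest of the list and did not pass (limma adjusted p = 0.930). The PACAP receptor Adcyap1r1 was at 0.785 TPM or less in every sample and was not tested, and neither was the CGRP receptor Calcrl, at 0 to 1.997 TPM.

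Genes that process peptides and build dense-core vesicles were tested for 18 of 19 listed, of which 4 rose and 2 fell at ZT20 (median difference 0.48), against 12.8% and 3.61% of all tested genes. Differences were positive for 16 of the 18. The 4 were the convertase Pcsk2 (ENSMUSG00000027419), the granin Scg2, the vesicle priming factor Cadps and the vesicular monoamine transporter Slc18a2. Pcsk2 was at 90.2 to 103 TPM at ZT20 and 47.3 to 59.9 TPM at ZT8, a difference of 0.87 ± 0.12 (SE) (limma adjusted p = 0.00583). Scg2 (0.66, limma adjusted p = 0.0130), Cadps (0.79, limma adjusted p = 0.0104) and Slc18a2 (1.32, limma adjusted p = 0.0452) likewise did not overlap between the groups, as in 24.5% of all tested genes. The 2 that fell were Pam (ENSMUSG00000026335), the enzyme that amidates peptides such as CGRP, substance P and neuropeptide Y, and Scg5, the chaperone that prepares PC2. Pam was at 13.1, 35.9, 22.8 and 22.4 TPM in the ZT20 replicates and 56.9, 60.9 and 51.6 TPM at ZT8, a difference of −1.31 ± 0.28 (SE) (limma adjusted p = 0.0200). Scg5 differed by −0.60 (limma adjusted p = 0.0108). Cpe, Rab3a and Pcsk1n, the most abundant of the list, did not pass (limma adjusted p = 0.934, 0.581 and 0.208). Without ZT20 replicate 3 the calls of Scg2 (limma adjusted p = 0.0514) and Pam (0.0583) were lost, and without ZT20 replicate 4 that of Pam (0.0591). Slc18a2 lost its call without any 1 library other than ZT8 replicate 2. After the length and GC correction 1 rose and 2 fell, and after median-ratio scaling likewise 1 and 2. With the covariate 2 rose and 1 fell, and the list's median was −0.37.

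**Figure D5:**
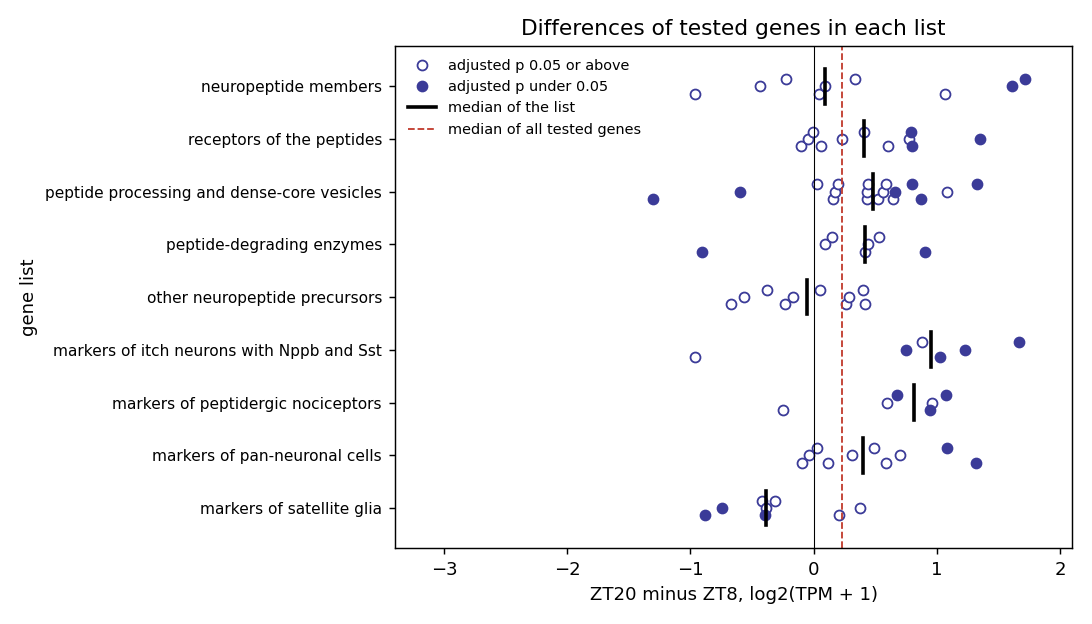
Differences in log2(TPM + 1), ZT20 minus ZT8 (horizontal axis), of the tested genes in 9 gene lists (vertical axis); filled circles have a limma adjusted p under 0.05, thick bars are list medians and the dashed line is the median of all tested genes (0.23). The itch neuron markers lie to the right except Nts, and Pam and Scg5 lie to the left among the processing genes.

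Peptide-degrading enzymes were tested for 7 of 9 listed, and 1 rose and 1 fell (median 0.42), against 12.8% and 3.61% of all tested genes. With the covariate 0 passed in limma, with 0 higher and 1 lower at an unadjusted p under 0.05. Ece1, an endothelin-converting enzyme that also cleaves substance P and CGRP, differed by 0.90 (limma adjusted p = 0.0356). It lost its call in 14 of 21 alternatives, among them both scalings, no minimum, the length and GC correction and the fits without any 1 of ZT20 replicates 1, 3 and 4 or ZT8 replicates 2 and 3 (limma adjusted p = 0.0567 to 0.103 in these last). The peptidase Cpq differed by −0.91 (limma adjusted p = 0.0127), at 19.0 to 26.0 TPM at ZT20 and 35.6 to 50.1 TPM at ZT8. Ide and Ece2, the most abundant with Ece1, did not pass (limma adjusted p = 0.256 and 0.139). Of 22 other peptide precursor genes 10 were tested and 0 passed in limma (median −0.057), with 0 higher and 1 lower at an unadjusted p under 0.05. With no minimum the median over 19 of them was 0.26, with 5 higher and 1 lower at that p, and 1 gene fell under median-ratio scaling and under quantile normalization. The highest of these were Nmb (188 to 271 TPM over all samples), the precursor of neuromedin B, followed by Ucn (30.8 to 78.1 TPM) and Crh (11.2 to 34.6 TPM).

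The gene with the most similar pattern over the 7 samples was found for each tested peptide gene as the smallest root-mean-square difference of log2(TPM + 1) after centring, among 10268 genes averaging 5 TPM or more. For Adcyap1 it was the kinase gene Brsk2 (0.17, against a spread of Adcyap1 itself of 0.91), for Nts 1700003F12Rik (0.083 against 0.64), for Nppb Ppfia2 (0.17 against 0.62) and for Sst Crtc2 (0.26 against 0.92). Gal was nearest to Arf6, Npy to Ss18l2, Calca to Ndufb3, Calcb to Cox7a1 and Tac1 to Gm42164. With 7 samples and that many genes, a close match describes these libraries only.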

How the data were processed

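RNA from neuron-enriched dorsal root ganglia was sequenced in 7 samples, mapped to ZT20 (4) and ZT8 (3) by title. The authors deposited 1 table of TPM values, with 0 columns of per-sample values left unused. Per the submitters' processing notes, FastQC 0.11.9, Trim Galore 0.6.6, Salmon 1.6.0, DESeq2 1.34.0 and the build GRCm39 were named, without their roles. Depth and counting error cannot be had from TPM, and no scaling between samples is stated.

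Values were analysed as log2(TPM + 1). Genes averaging 1 TPM or more were fitted with limma 3.58.1 in R 4.3.3 (intensity trend, two-sided, Benjamini-Hochberg), which was tested on simulated data. Ratios were tested by exact permutation. Differences are ZT20 minus ZT8. Lengths came from GENCODE M21 and upstream sequences from RefSeq (both GRCm38), used by gene and not joined to GRCm39 coordinates.

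The members and gene lists were chosen with earlier results of these data known. Named genes were all 10 members, list genes past the threshold (up to 4 in each direction) and the 3 most abundant of each list other than markers. The alternatives changed the filter (none, or a mean of 5 TPM), the pseudocount (0.1) or the scaling (quantile, median-ratio, or without mitochondrial transcripts). Others used a loess correction for length and GC (span 0.3), the replicate block, a pan-neuronal covariate, no intensity trend, array weights, a threshold of 0.10, and leaving out libraries. Replicate numbers were not shown to pair samples. Figures used matplotlib 3.10.9. The result of 1 marker gene is not reported here.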

Additional observations from a re-analysis of the deposited data

Results flagged for a closer look

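Among 46 values checked in the 4 ZT20 samples, 5 had 1 sample far from the other 3, meaning that its gap to the nearest took a share of the whole range above Dixon's 95% critical value. Chance gives about 1 in 20, or 2.3 here. For Adcyap1 the share was 0.856, with 154 TPM in ZT20 replicate 1 against 77.4 to 88.5 TPM. In that same library Npy2r was at 13.98 TPM against 12.3 to 12.6 TPM (0.834), and Pcsk1n, an inhibitor of the convertase PC1/3, was at 654 TPM against 404 to 441 TPM (0.851). Crh was low in ZT20 replicate 3, at 11.2 TPM against 16.7 to 17.6 TPM (0.861). Rab3a was low in ZT20 replicate 2, at 681 TPM against 872 to 894 TPM (0.896). What set these libraries apart was not tested.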

How the results depend on the processing

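Adcyap1 was positive in each of 21 alternatives and lost its call in 2: with the pan-neuronal covariate (1.36) and without ZT20 replicates 3 and 4 (1.92). Sst and Nppb were positive in each of the 20 that could be run for them, since a mean of 5 TPM removes both. TPM gives no depth, so values near 0 have no known precision. The cause of each change below was not tested.

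For the peptide genes, 2 higher and 0 lower became 1 higher with a pseudocount of 0.1, no filter or a mean of at least 5 TPM, and 0 higher with the covariate or without ZT20 replicates 3 and 4. The count lower became 1 with median-ratio scaling, array weights or a threshold of 0.10. Leaving out 1 sample gave 1 to 3 higher and 0 to 1 lower.

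For all genes (1899 higher, 534 lower), the counts were 978 and 200 with no filter, 1088 and 1254 with median-ratio scaling, 1023 and 814 with quantile normalization, 285 and 93 with the covariate, 2982 and 917 with array weights, and 3098 and 981 at a threshold of 0.10. The length and GC correction gave 540 higher and 779 lower, so that more genes were lower than higher, and no intensity trend gave 332 lower. Leaving out 1 sample gave 587 to 2380 and 93 to 675. Without ZT20 replicates 3 and 4 limma called 0 and 0, with 1810 and 597 at an unadjusted p under 0.05. Over the receptor, processing, degrading and other precursor lists together (8 higher, 3 lower), no filter gave 5 higher, median-ratio scaling 3, the length and GC correction 2, the covariate 2 higher and 1 lower, the fit without those replicates 0 and 0, a threshold of 0.10 13 higher, and leaving out 1 sample 4 to 9 and 2 to 3.

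Signs turned for small differences. Under median-ratio scaling Calca was −0.16, Tac1 −0.21, Cpe −0.22, Nmb −0.20, Rab3a −0.074 and Ramp2 −0.17, and under quantile normalization Ramp2 was −0.19. The length and GC correction gave Cpe −0.013 and Ide −0.016. With the covariate Nts was 0.62, Gal 1.28, Calcb 0.65, Tac1 −0.081, Cpe −1.02, Crh 1.37, Ece2 −0.27, Pcsk1n −0.39, Rab3a −1.03, Ramp2 −1.93 and Ucn 1.06. With array weights Gal was 0.052, Cpe −0.057, Crh 0.017 and Ramp2 −0.40, and without ZT20 replicates 3 and 4 Cpe was −0.15 and Ramp2 −0.011, while Calca was 0.27 and Nmb 0.26. Leaving out 1 sample, the ranges were −0.026 to 0.19 for Calca, −0.20 to 0.24 for Cpe, −0.50 to 0.21 for Crh, −0.45 to 0.18 for Gal, −0.03 to 0.19 for Nmb, −0.078 to 0.39 for Rab3a, −0.51 to 0.38 for Ramp2, −0.093 to 0.18 for Tac1, −0.58 to 0.024 for Gal to Calca and −0.22 to 0.16 for Tac1 to Calca.

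Same-numbered samples deviated together with correlations of −0.014, 0.15 and 0.083, so the numbers were not taken to pair samples. The replicate block gave 1 peptide gene higher (Adcyap1) and 1 lower (Nts, −0.92, limma adjusted p = 0.0261), 891 and 283 of all genes, Cpe at −0.030 and Ramp2 at −0.011. The block with the length and GC correction, chosen after seeing the data, gave the same 2 peptide genes (Nts −0.94, limma adjusted p = 0.0473), 178 and 196 of all genes, 0 list genes higher, Cpe at −0.074 and Ide at −0.15.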
